A study of Saccharomyces cerevisiae with 12 samples.

Results

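The genes described here are the peroxisome biogenesis genes of budding yeast. They were taken by name: every gene called PEX followed by a number, plus INP1, INP2, VPS1, DNM1 and FIS1. The rule found 32 genes (27 PEX genes and the other 5) among the 6645 genes of the table, and all 32 matched the RefSeq annotation of sacCer3. PEX9 and PEX35 stand in the table under their open reading frame names, so the rule did not take them. Of the 32 genes, 30 had a mean of at least 20 PPM (parts per 1000000, the reads of the gene over all reads of its library) over the 12 libraries and were tested with 4776 genes in all. PEX7, with a mean of 18.4 PPM, and INP2, with a mean of 17.7 PPM, fell below that filter.

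Peroxisomes are single-membrane organelles that carry out fatty acid beta-oxidation and break down the hydrogen peroxide this produces. In yeast they are the only site of beta-oxidation and they multiply on oleate or when glucose runs out. Peroxins, the products of the PEX genes, put proteins into the peroxisomal membrane, import folded enzymes from the cytosol with receptors that are recycled by ubiquitin and an ATPase, and control the size and number of the organelles. The dynamin-related proteins Vps1 and Dnm1, with Fis1, divide peroxisomes, and Inp1 and Inp2 share them out between the mother cell and the bud.

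The cells were Saccharomyces cerevisiae of the BY4741 background carrying the plasmid-borne probe Grx1-roGFP2, a redox-sensitive green fluorescent protein fused to a glutaredoxin, whose fluorescence reports the glutathione redox state. Cultures in casein amino acid medium were grown to a chronological age of 48 or 72 hr, and a cell sorter separated oxidized from reduced cells by the probe's signal. The 4 groups were oxidized cells at 48 hr, reduced cells at 48 hr, oxidized cells at 72 hr and reduced cells at 72 hr, with 3 libraries each. All groups share the strain, the probe and the medium, and no unsorted cells were sequenced. The strain is given as MATα. The MATa genes MFA1 (437 to 691 PPM) and MFA2 (379 to 569 PPM) were nevertheless present in all 12 libraries. The MATα gene MF(ALPHA)2 was at 0 in 11 of 12. MFA1, MFA2 and MF(ALPHA)2 thus went against that label in every group. Other mating type genes were less clear. The MATα genes MF(ALPHA)1 (21.2 to 133 PPM), STE3 (7.07 to 44.2 PPM) and SAG1 (6.98 to 27.97 PPM) were present in all libraries. MF(ALPHA)1 had a mean of 51.7 PPM. The MATa genes STE6, BAR1 and AGA2 had similar means (50.1, 59.6 and 59.1 PPM), and STE2 a higher one (158 PPM).

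Libraries held 90403 to 241084 reads, so that 1 read stood for 4.15 to 11.1 PPM. The shallowest library was an oxidized one at 48 hr and the deepest a reduced one at 48 hr. Summed levels of 8 genes expressed in daughter cells (DSE1, DSE2, DSE3, DSE4, SCW11, CTS1, EGT2 and AMN1) were 1063 to 1281 PPM in oxidized and 838 to 1158 PPM in reduced cells at 48 hr, and 1043 to 1165 PPM in oxidized and 714 to 1026 PPM in reduced cells at 72 hr. Averaged over both ages all 8 were higher in oxidized cells (1972 of all 4776 genes tested were), with a median log2 difference of 0.37 (all genes -0.08). At an unadjusted limma p under 0.05 there were 3 of the 8 (37.5%, against 23.2% of all genes). None of the 8 passed the adjusted threshold at 48 hr, at 72 hr or averaged, against 3.85%, 9.61% and 11.9% of all genes. In the sorted fractions the paper counted more bud scars per cell among oxidized cells and more budding among reduced ones. The part of these 8 genes in the results below was not tested. The levels come from whole sorted fractions, in which fewer cells expressing a gene and less of its RNA per cell cannot be told apart.

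Oleate-responsive genes of yeast carry the oleate response element, which the activators Oaf1 and Pip2 bind. The element was searched as CGG and CCG 15 to 18 bases apart, a pattern that reads the same on both strands, in the 300 bases that run from 250 before to 50 after each start codon of the RefSeq annotation (sacCer3). A match to this spacing pattern, which need not be a working element, was found in 5 of the 32 genes, and in 246 of 6001 promoters of the genome (4.1%). The 5 matches are shown because PEX11, described below, is among them, with the outer triplets in capitals and each on the strand of its gene.
PEX5, chrIV:950388-950409: CGGatcatcgcgattaactCCG
PEX13, chrXII:537116-537139: CGGgccaaattttttttatttCCG
PEX6, chrXIV:22754-22777: CGGcgataatcgtcaacacttCCG
PEX11, chrXV:48756-48778: CGGcatttatctcggagaacCCG
PEX25, chrXVI:338784-338806: CGGtgatagtatatgaaattCCG
The match of PEX11 lay 135 to 113 bases before the start codon, and those of the other 4 genes began 144 to 186 bases before theirs.

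The same window held the stress response element, the binding sequence of Msn2 and Msn4, in 9 of the 32 genes (PEX22, PEX34, PEX29, FIS1, PEX2, PEX13, INP2, INP1 and PEX6) and in 21.6% of all promoters. It was searched as AGGGG on either strand, and it cannot overlap the outer triplets of the oleate pattern. PEX11 and PEX2 were the genes that differed between oxidized and reduced cells over both ages, so their whole windows are given. Capitals mark the outer triplets of the oleate pattern in PEX11 and the stress elements of PEX2 (AGGGG, or CCCCT for the other strand).
PEX11 promoter, minus strand, chrXV:48594-48893: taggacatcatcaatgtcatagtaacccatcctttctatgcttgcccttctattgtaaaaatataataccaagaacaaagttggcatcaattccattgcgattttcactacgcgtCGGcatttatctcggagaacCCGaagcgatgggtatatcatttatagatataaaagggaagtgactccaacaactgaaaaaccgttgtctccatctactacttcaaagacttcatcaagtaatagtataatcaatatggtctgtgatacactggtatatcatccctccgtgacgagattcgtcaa
PEX2 promoter, plus strand, chrX:36669-36968: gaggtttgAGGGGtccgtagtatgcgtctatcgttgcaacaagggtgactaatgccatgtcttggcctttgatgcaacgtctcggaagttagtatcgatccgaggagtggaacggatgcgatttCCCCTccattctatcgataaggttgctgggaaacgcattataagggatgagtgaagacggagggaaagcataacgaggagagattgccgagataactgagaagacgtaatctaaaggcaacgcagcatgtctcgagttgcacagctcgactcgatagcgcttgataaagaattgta
No match to the oleate pattern was in the window of PEX2, and none to the stress element in that of PEX11.

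Levels spanned a wide range. The counting window of the assay has the same length for every gene, so levels in PPM can be set side by side. PEX19 had the highest mean over the 12 libraries (278.7 PPM), followed by PEX11 (258.5 PPM), FIS1 (240.2 PPM), PEX3 (232.9 PPM), PEX2 (130.9 PPM) and PEX22 (105.3 PPM). The other 26 genes lay below 100 PPM, where a library holds few reads of each. PEX19, FIS1 and PEX3 overlapped each other's range over the libraries, and so did PEX11 with each of them, so their order is not fixed by these values. Together the 32 genes took 2185 ± 222 PPM in oxidized and 2447 ± 206 PPM in reduced cells at 48 hr, and 2431 ± 66.0 PPM in oxidized and 3033 ± 182 PPM in reduced cells at 72 hr (mean ± SD, n = 3 each). Without PEX11 and PEX2 these sums were 1970 ± 213 PPM in oxidized and 1978 ± 190 PPM in reduced cells at 48 hr, and 2179 ± 34.4 PPM in oxidized and 2412 ± 117 PPM in reduced cells at 72 hr. These 2 genes were left out because they passed the redox test below, so the smaller gap follows from that choice. At 72 hr the remaining sums still did not overlap (2146 to 2215 PPM in oxidized and 2276 to 2481 PPM in reduced cells).

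**Figure D1:**
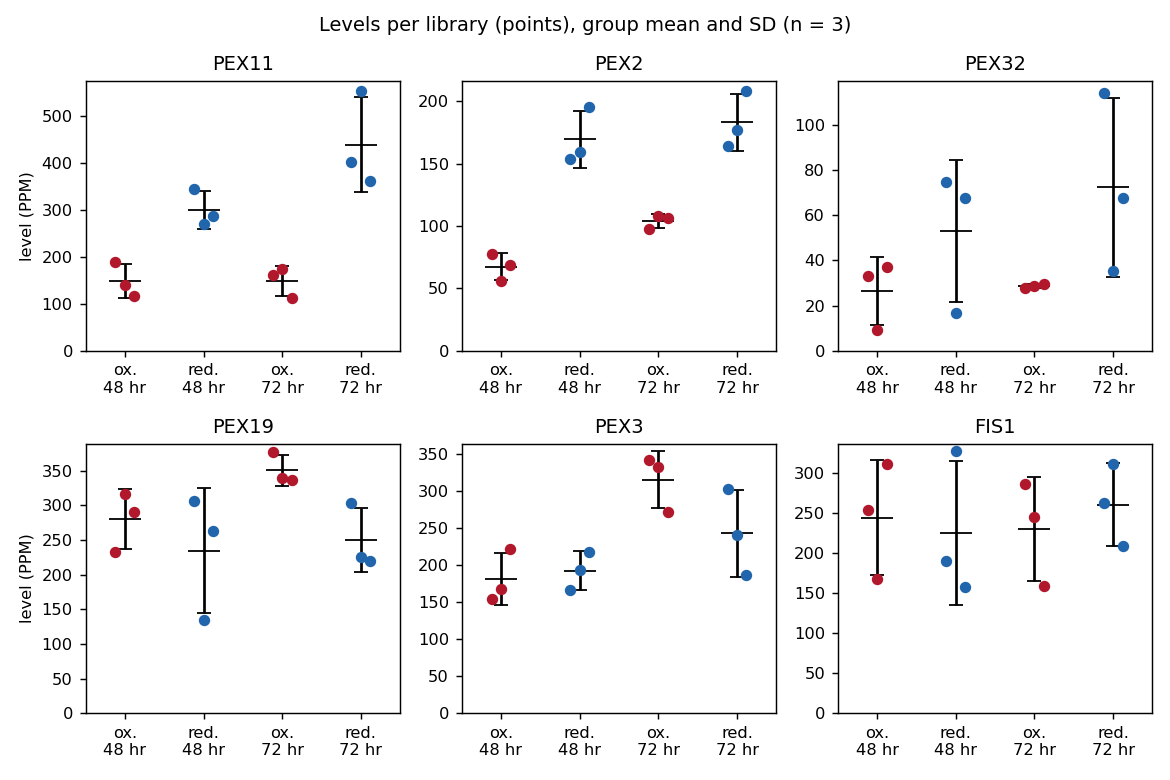
Level in PPM (vertical axis, from 0) of PEX11, PEX2, PEX32 and of the highly expressed PEX19, PEX3 and FIS1 in each of the 12 libraries (points), with the mean and SD of the 3 libraries of each group. The oxidized libraries (red) lie below all reduced libraries (blue) for PEX11 and PEX2 at both ages and for PEX32 at 72 hr, and the groups overlap for FIS1.

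The first comparison asks which of these genes differ between oxidized and reduced cells of one age. Few did, and those that passed the test (limma on log2(PPM + 10), Benjamini-Hochberg adjusted over all genes tested, threshold 0.05) were lower in oxidized cells. At 48 hr 2 of the 30 genes tested fell, PEX2 and PEX11, and none rose, while 3.85% of all genes passed (2.43% lower and 1.42% higher). At 72 hr 2 of the 30 fell, PEX11 among them, and none rose, while 9.61% of all genes passed (4.75% lower and 4.86% higher). Averaged over both ages, with 6 libraries a side, PEX11 and PEX2 fell, while 11.9% of all genes passed (6.97% lower and 4.9% higher). Each count of 2 in 30 is a share of 6.67%, above the background at 48 hr by about 1 gene and below it in the other comparisons, so the number of calls is not a result about the group. The median difference of the 30 genes was 0.02 at 48 hr (all genes -0.07), -0.27 at 72 hr (all genes -0.11) and -0.24 averaged (all genes -0.08).

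The data of the 2 ages share no library. By the sign of the fitted log2 difference, whether or not it passed the test, 12 of the 30 genes were lower in oxidized cells at both ages (40%, against 38.0% of all genes), and 5 were higher at both (16.7%, against 23.3%). The remaining 13 had opposite signs. Among the 12 were PEX2, PEX4, PEX5, PEX6, PEX11, PEX13, PEX15, PEX22, PEX27, PEX30 and PEX32, and the 5 were PEX8, PEX14, PEX17, PEX19 and VPS1. Some of these signs belong to differences near 0, and for PEX4, PEX17 and VPS1 at 48 hr and PEX6 and PEX27 at 72 hr the means in PPM ran the other way. All 3 oxidized libraries lay outside the range of the reduced ones for 7 genes at 48 hr (5 lower and 2 higher, against 10.7% lower and 6.76% higher of all genes, 17.5% in all) and for 8 at 72 hr (7 lower and 1 higher, against 15.2% lower and 10.9% higher of all genes, 26% in all).

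The precision limits what a missed threshold means. The 95% interval of a difference reached a median of 0.87 on the log2 scale to each side at 1 age, or 1.82-fold, and 0.61, or 1.53-fold, for the average of both. The interval of the averaged difference lay wholly within a 2-fold change in either direction for 18 of the 30 genes, among them FIS1, PEX3, PEX19, PEX22, PEX34 and DNM1. For the others the interval reached past 2-fold on at least 1 side.

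**Figure D2:**
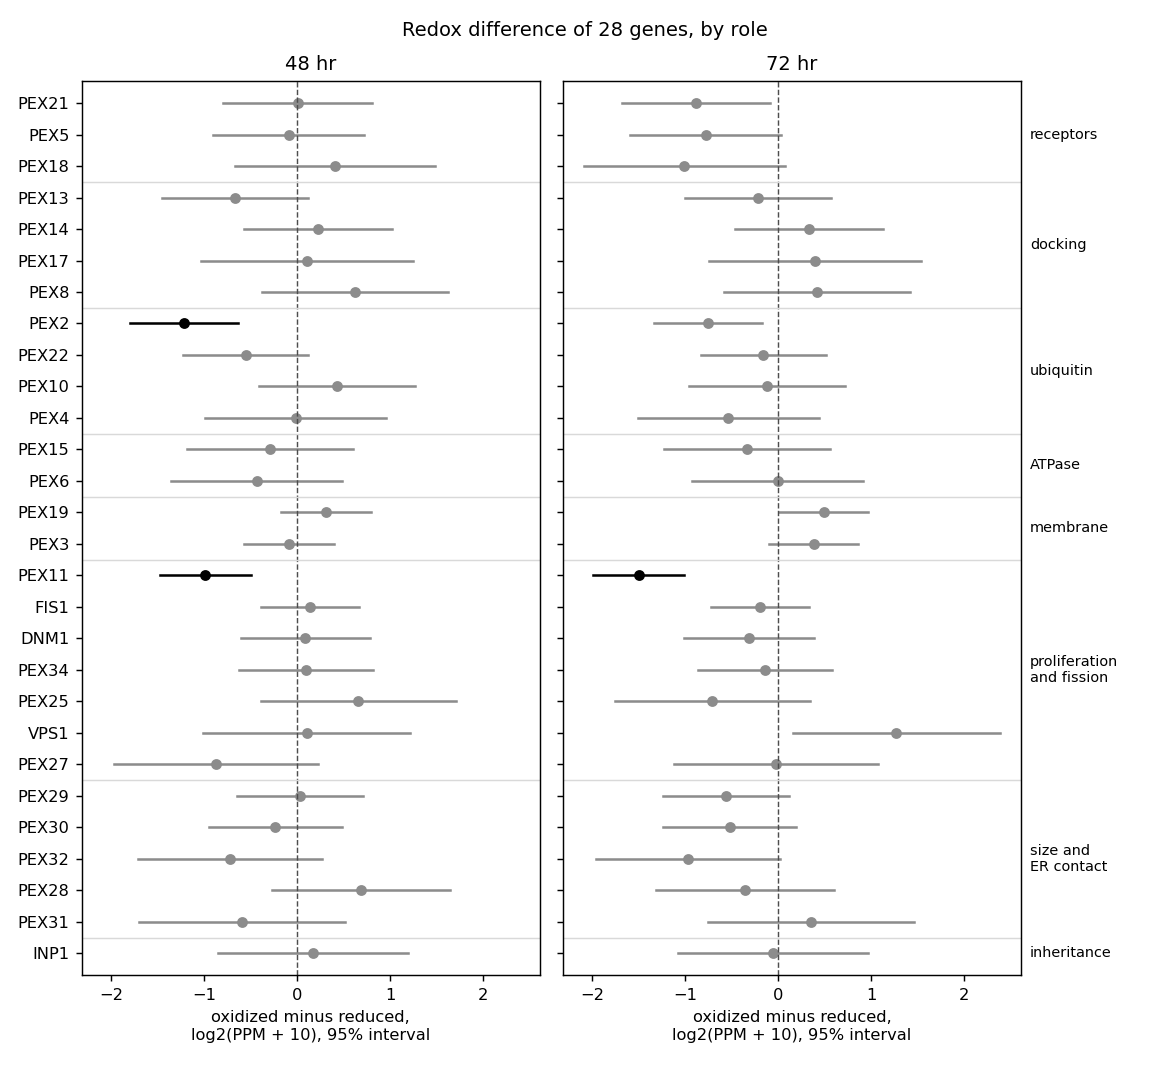
Difference between oxidized and reduced cells (horizontal axis, oxidized minus reduced on the log2(PPM + 10) scale, with its 95% interval) of 28 genes at 48 and 72 hr, grouped by role; black marks genes past the adjusted threshold of 0.05. PEX11 stands at -0.99 and -1.50 and PEX2 at -1.22 and -0.75, while most intervals include 0.

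Peroxisomal proliferation and fission were covered by 7 genes. Only PEX11 among them passed the test in either age. Pex11 elongates the peroxisomal membrane ahead of division, and its loss leaves few, large peroxisomes. At 48 hr PEX11 (YOL147C, coding sequence chrXV:47933-48643, minus strand) had 188.0, 139.8 and 116.0 PPM in oxidized cells, against 344.3, 268.5 and 285.8 PPM in reduced cells. In the older cultures PEX11 had 160.5, 173.1 and 112.0 PPM in oxidized cells, against 402.2, 551.4 and 360.6 PPM in reduced cells. The highest of the 6 oxidized libraries (188 PPM) stayed below the lowest of the 6 reduced ones (269 PPM).

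On the log2(PPM + 10) scale PEX11 differed by -0.99 at 48 hr (SE 0.24, 95% interval -1.48 to -0.50, limma adjusted p = 0.0088) and by -1.50 at 72 hr (SE 0.24, -1.99 to -1.01, limma adjusted p = 5.9e-06). The averaged difference was -1.24 (SE 0.17, -1.59 to -0.90, limma adjusted p = 1.4e-07). The larger size at 72 hr was not a change that passed: the redox difference at 72 hr minus that at 48 hr was -0.51 (limma adjusted p = 0.72). The reads behind these values were 54 for oxidized against 153 for reduced cells at 48 hr, and 66 for oxidized against 223 for reduced cells at 72 hr. The call at 48 hr was lost without oxidized replicate 3 (adjusted p = 0.073) or without reduced replicate 1 (adjusted p = 0.083). No counting window of a neighbouring gene overlapped that of PEX11.

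The other 6 genes of this group did not pass. FIS1, the membrane anchor of the fission machinery, had 254.4, 167.8 and 311.0 PPM in oxidized and 190.8, 327.2 and 157.9 PPM in reduced cells at 48 hr. The values at 72 hr were 286.0, 245.3 and 159.2 PPM in oxidized and 263.2, 311.0 and 208.5 PPM in reduced cells. The groups overlapped fully, and the averaged difference was -0.03 (95% interval -0.40 to 0.34). DNM1, the dynamin-related GTPase recruited through Fis1, had an averaged difference of -0.11 with a range of 55.8 to 118 PPM over oxidized and 66.4 to 152 PPM over reduced libraries. VPS1, the other dynamin-related GTPase, had 19 reads in oxidized against 7 in reduced cells at 72 hr, a difference of 1.27 (95% interval 0.16 to 2.38, limma adjusted p = 0.16), and a difference of 0.10 at 48 hr. PEX25 and PEX27, relatives of PEX11, had averaged differences of -0.02 and -0.45, and PEX34, which acts with them on peroxisome number, had one of -0.02. PEX25 had 15.8 to 37.3 PPM (median 31) over the 6 oxidized libraries and 0 to 77.8 PPM (median 36.5) over the 6 reduced ones. PEX34 spanned 46.6 to 133 PPM (median 93.3) over the 6 oxidized libraries and 67.7 to 120 PPM (median 87) over the 6 reduced ones. The reads of PEX27 were as few as 3 over the oxidized libraries at 48 hr.

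Receptor recycling depends on a ligase complex of RING proteins, Pex2 and Pex10 among them, and on the conjugating enzyme Pex4 with its membrane anchor Pex22. PEX2 fell at 48 hr and over both ages, and PEX10, PEX4 and PEX22 passed in neither age. PEX2 (YJL210W, chrX:36919-37734, plus strand) had 77.4, 55.9 and 68.5 PPM in oxidized cells at 48 hr, against 153.5, 159.4 and 195.5 PPM in reduced cells. At 72 hr it had 97.7, 108.2 and 106.1 PPM in oxidized cells, against 163.9, 176.7 and 208.5 PPM in reduced cells. As with PEX11, all 6 oxidized libraries lay below all 6 reduced ones, which held for 2 of the 30 genes and, in this direction, for 2.72% of all genes.

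The difference of PEX2 was -1.22 at 48 hr (SE 0.29, 95% interval -1.80 to -0.64, limma adjusted p = 0.0059), from 26 reads in oxidized cells against 82 in reduced cells. At 72 hr it was -0.75 (SE 0.29, -1.34 to -0.17) and missed the threshold (limma adjusted p = 0.098), from 47 reads in oxidized cells against 95 in reduced cells. The average was -0.99 (SE 0.20, -1.40 to -0.57, limma adjusted p = 0.00033), and the difference between the ages was 0.46 (limma adjusted p = 0.81). Without reduced replicate 3 the call at 48 hr was lost (adjusted p = 0.053). No neighbouring window overlapped that of PEX2.

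PEX10 had 41.3 to 79.1 PPM over the oxidized and 22.6 to 67.1 PPM over the reduced libraries, with an averaged difference of 0.15. PEX4 had 11.1 to 65.3 PPM over the oxidized and 20.7 to 99.0 PPM over the reduced libraries (-0.28), and PEX22 had a median of 90.4 PPM over the oxidized and 116 PPM over the reduced libraries (-0.36). Of these 3 genes PEX10 alone was higher on average. The window of PEX22 overlapped by 239 bp that of ACS1 on the opposite strand, an acetyl-CoA synthetase gene whose averaged difference was -1.39. Whether the counting used strand is not stated, so reads of the pair cannot be told apart.

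The receptors bring matrix enzymes to the membrane. Pex5 binds the C-terminal targeting signal, and Pex7 binds the N-terminal one with the co-receptors Pex18 and Pex21. At 72 hr all 3 genes tested were lower in oxidized cells and none passed: PEX5 by -0.78 (limma adjusted p = 0.27), PEX21 by -0.89 (limma adjusted p = 0.18) and PEX18 by -1.01 (limma adjusted p = 0.28). The differences at 48 hr were -0.09 for PEX5, 0.01 for PEX21 and 0.41 for PEX18. PEX5 had 20.9 to 101 PPM (median 59.5) over the 6 oxidized libraries and 52.6 to 101 PPM (median 80) over the 6 reduced ones. PEX18 was near the floor in oxidized cells at 72 hr, with 14.0, 14.4 and 0 PPM from 4 reads in all, against 15 reads in reduced cells. PEX21 had 62.3 ± 8.66 PPM in oxidized and 124 ± 17.4 PPM in reduced cells at 72 hr (SD, n = 3 each), groups that did not overlap. PEX7, which was not tested, had 20 reads in oxidized and 14 in reduced cells over both ages, or 1.73 times as many per library read (exact 95% interval from counting error, 0.83 to 3.69).

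Docking at the membrane is done by Pex13, Pex14 and Pex17, and Pex8 stands on the inner side of the import machinery. None of the 4 genes passed. PEX14, PEX17 and PEX8 had averaged differences of 0.28, 0.25 and 0.52, and PEX17 had 14 reads in oxidized against 23 in reduced cells at 48 hr. PEX14 had 46.6 to 88.4 PPM (median 64.1) over the 6 oxidized libraries and 35.3 to 73.3 PPM (median 51.5) over the 6 reduced ones, and the ranges overlapped. PEX17 spanned 14 to 53.1 PPM (median 32.4) over the 6 oxidized libraries and 0 to 66.4 PPM (median 33.8) over the 6 reduced ones. PEX13 was lower at both ages, with 32.7 ± 4.48 PPM in oxidized and 58.2 ± 11.6 PPM in reduced cells at 48 hr, groups that did not overlap, and 75.6 ± 26.8 PPM in oxidized and 86.5 ± 3.20 PPM in reduced cells at 72 hr (SD, n = 3 each). PEX8 differed by 0.62 at 48 hr and was 1 of the 2 genes whose oxidized libraries all lay above the reduced ones at that age, the other being PEX28.

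Receptors leave the membrane through an ATPase complex that holds Pex6 and that Pex15 anchors. Neither PEX15 nor PEX6 passed, with averaged differences of -0.31 (limma adjusted p = 0.61) for PEX15 and -0.22 (limma adjusted p = 0.75) for PEX6. PEX15 spanned 9.32 to 105 PPM (median 74.4) over the 6 oxidized libraries and 30.1 to 106 PPM (median 95.4) over the 6 reduced ones. PEX6 at 72 hr stood at 48.1 ± 12.2 PPM in oxidized and 47.8 ± 7.48 PPM in reduced cells (SD, n = 3 each), a difference of -0.01.

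Membrane proteins are inserted by Pex19, a cytosolic chaperone, and its membrane partner Pex3. PEX19 had 232.3, 317.0 and 289.9 PPM in oxidized and 306.9, 134.3 and 263.2 PPM in reduced cells at 48 hr. After 72 hr PEX19 had 376.7, 339.0 and 336.0 PPM in oxidized and 302.9, 226.2 and 219.8 PPM in reduced cells, and all oxidized libraries were higher. The difference at 72 hr was 0.49 (unadjusted p = 0.048, limma adjusted p = 0.24) and the average 0.40 (limma adjusted p = 0.13), on the opposite side from PEX11 and PEX2. The window of PEX19 overlapped by 273 bp that of IDP1 (mean 127 PPM) on the opposite strand, so reads of this pair cannot be told apart. PEX3 had 154.9, 167.8 and 221.4 PPM in oxidized and 165.9, 193.0 and 218.1 PPM in reduced cells at 48 hr. At 72 hr it had 341.8, 331.8 and 271.2 PPM in oxidized and 302.9, 240.3 and 186.0 PPM in reduced cells, with an averaged redox difference of 0.15.

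Size, number and contact with the endoplasmic reticulum are set by the membrane proteins of PEX28, PEX29, PEX30, PEX31 and PEX32. None passed in either age. PEX29 had 62.8 to 99.6 PPM (median 82.7) over the 6 oxidized libraries and 73.3 to 134 PPM (median 96.6) over the 6 reduced ones. PEX30 spanned 55.9 to 105 PPM (median 65.6) over the 6 oxidized libraries and 67.1 to 184 PPM (median 74.9) over the 6 reduced ones. With the ages pooled both genes overlapped between oxidized and reduced cells. All oxidized libraries lay below the reduced ones for PEX29 at 72 hr and for PEX30 at 48 hr, but by less than 1 read. The highest oxidized and lowest reduced values were 72.1 and 73.3 PPM for PEX29, and 66.4 and 67.1 PPM for PEX30. PEX32 came closest, with 9.32 to 36.9 PPM over the oxidized and 16.8 to 114 PPM over the reduced libraries and an averaged difference of -0.85 (limma adjusted p = 0.11), from 24 reads in oxidized and 69 in reduced cells. Without reduced replicate 2 at 48 hr it passed, at -1.11 (adjusted p = 0.028). Its window overlapped by 98 bp that of SSE2, a chaperone gene on the opposite strand whose averaged difference was 0.96. PEX30, PEX29, PEX31 and PEX28 had averaged differences of -0.38, -0.26, -0.12 and 0.16. PEX28 had 21.6 to 42.2 PPM (median 37.2) over the 6 oxidized libraries and 15 to 70.7 PPM (median 27.8) over the 6 reduced ones, and PEX31 spanned 0 to 46.6 PPM (median 29.2) over the 6 oxidized libraries and 12.4 to 58.7 PPM (median 25.5) over the 6 reduced ones. Of the inheritance factors, INP1, which holds peroxisomes in the mother cell, had an averaged difference of 0.05 and overlapped between the groups, with 14.0 to 44.2 PPM over the oxidized and 14.9 to 45.1 PPM over the reduced libraries. INP2, which links them to the myosin Myo2 for transport into the bud, was not tested, and its 13 reads in oxidized and 19 in reduced cells gave a depth-scaled ratio of 0.83 (exact 95% interval from counting error, 0.38 to 1.76).

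The second comparison asks which of these genes differ between cells aged 72 and 48 hr. None of the 30 genes passed in oxidized cells (0.44% of all genes did), in reduced cells (2.32%) or averaged over both (2.3%) by limma. At an unadjusted p under 0.05 there were 4, 4 and 6 of the 30 genes (13.3%, 13.3% and 20%), against 9.90%, 12.0% and 13.3% of all genes. Higher at 72 hr were 17 of 30 in oxidized cells, with a median difference of 0.08 (all genes 0.08), 23 of 30 in reduced cells, with a median of 0.23 (all genes 0.10), and 20 of 30 averaged, with a median of 0.17 (all genes 0.09).

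PEX3 had the smallest p of the age comparisons. Its 3 oxidized libraries at 72 hr were all above those at 48 hr, by 0.77 (unadjusted p = 0.0022, limma adjusted p = 0.16), and the average over both redox states was 0.54 (limma adjusted p = 0.083), which passed without reduced replicate 3 at 72 hr (0.62, adjusted p = 0.036). PEX18 was lower at 72 hr in oxidized cells by -1.68 (limma adjusted p = 0.18), with 4 reads at 72 hr and 19 at 48 hr. In reduced cells PEX25 (1.38, limma adjusted p = 0.21) and PEX21 (1.05, limma adjusted p = 0.21) had the largest differences, both higher at 72 hr with no overlap. Such a separation, higher at 72 hr, held for 5 of the 30 genes and 507 of all 4776 in reduced cells. In oxidized cells it held for 5 of the 30 and 425 of all 4776. PEX25 had only 9 reads at 48 hr, with 0 in 1 library, and 27 at 72 hr in reduced cells. PEX11 had a difference of 0.01 in oxidized and 0.52 in reduced cells (limma adjusted p = 1.0 and 0.36). The interval of its age difference in oxidized cells lay within 2-fold.

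**Figure D3:**
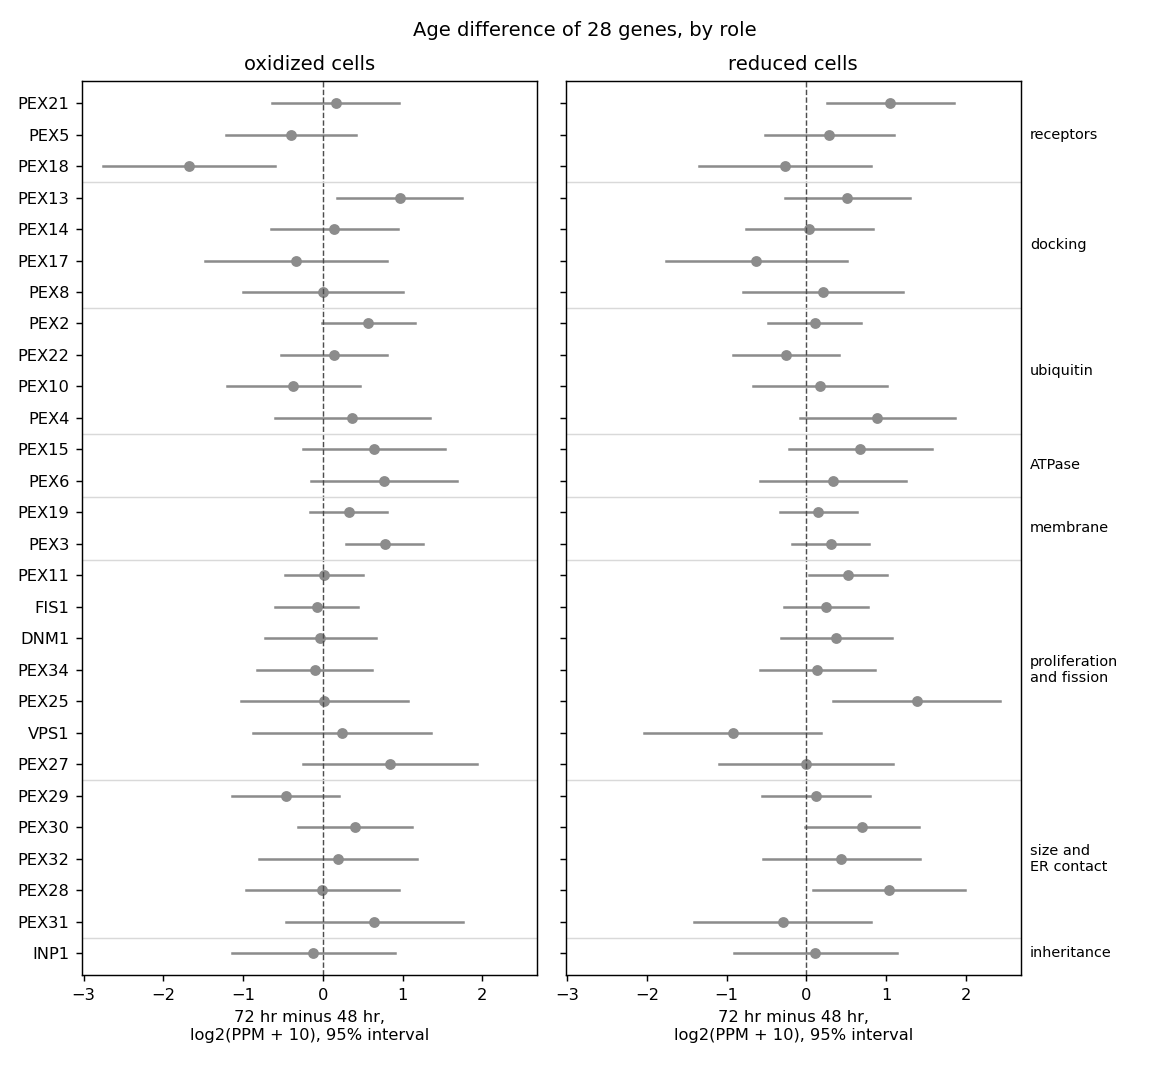
Difference between ages (horizontal axis, 72 hr minus 48 hr on the log2(PPM + 10) scale, with its 95% interval) of 28 genes, in oxidized and in reduced cells, grouped by role. None passed the adjusted threshold of 0.05, and PEX18 at -1.68 in oxidized cells and PEX25 at 1.38 in reduced cells lie farthest from 0.

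Whether the redox difference itself depends on age was tested as the difference at 72 hr minus that at 48 hr. None of the 30 genes passed by limma (0.775% of all genes did), and 1 had an unadjusted p under 0.05 (3.33%, against 9% of all genes). The median was -0.24 (that of all genes rounds to 0), with 18 genes lower. The median 95% interval reached 1.22 to each side, so only PEX19 had an interval within 2-fold, and smaller dependence on age was not detectable.

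Genes for enzymes and carriers of the organelle were set beside those that build it. A list of 26 genes of peroxisomal enzymes and carriers had 25 tested members, FOX2 (10.7 PPM) being too low. At 48 hr 13 of the 25 fell in oxidized cells (52%), at 72 hr 15 fell (60%), and averaged over both ages 16 fell (64%). None rose in any of the 3, and the median differences were -0.78, -0.97 and -0.88. Of all genes tested 2.43%, 4.75% and 6.97% fell in these comparisons, and the medians of all genes were -0.07, -0.11 and -0.08. The list was measured more precisely. The median 95% interval of the averaged difference reached 0.42 to each side for the list, 0.61 for the biogenesis genes and 0.56 for all genes. A difference of a given size could thus pass more easily in the list. The largest averaged differences were those of POX1 (-1.70, acyl-CoA oxidase), DCI1 (-1.67, a dienoyl-CoA isomerase homologue), MLS1 (-1.64, malate synthase), PXA1 (-1.52, a subunit of the fatty acid transporter) and ECI1 (-1.44, enoyl-CoA isomerase). Summed, the list took 6507 to 7588 PPM in oxidized and 10145 to 12046 PPM in reduced cells at 48 hr, and 7604 to 8394 PPM in oxidized and 12943 to 16477 PPM in reduced cells at 72 hr. The averaged difference of PEX11 (-1.24) lay within the range of the enzymes that fell, and that of PEX2 (-0.99) did too.

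**Figure D4:**
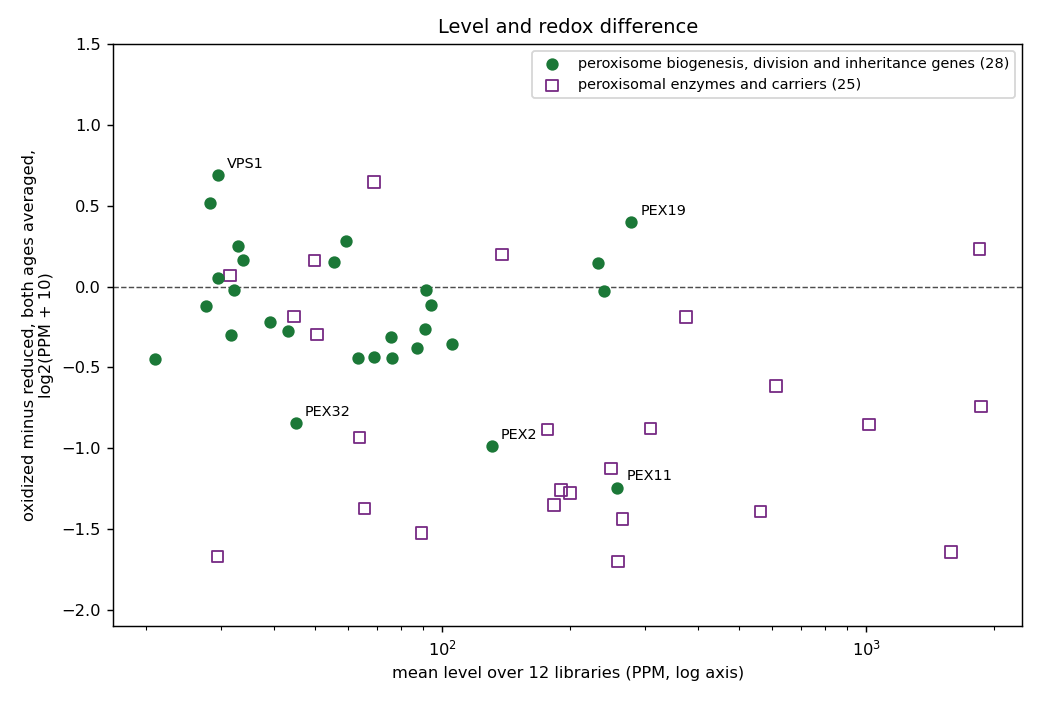
Averaged difference between oxidized and reduced cells (vertical axis, oxidized minus reduced on the log2(PPM + 10) scale) against the mean level over the 12 libraries (horizontal log axis, PPM) of 28 biogenesis genes (filled) and 25 enzyme and carrier genes (open). PEX11 at -1.24 and PEX2 at -0.99 lie among the enzymes, and the other biogenesis genes drawn lie between -0.85 and 0.69.

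The 5 biogenesis genes with the oleate pattern were read from the same fit. Averaged over both ages, PEX11 differed by -1.24, PEX5 and PEX13 by -0.44 each, PEX6 by -0.22 and PEX25 by -0.02, and only PEX11 passed. In the list of enzymes the pattern was in 7 of 26 promoters, and 6 of those 7 genes fell: POT1 (-1.35), CTA1 (-1.28), ECI1 (-1.44), DCI1 (-1.67), SPS19 (-0.88) and FAA2 (-1.26). The other, TES1, had a difference of -0.94 (limma adjusted p = 0.055). Over the whole list, with or without the pattern, 16 of the 25 tested genes fell, against 6.97% of all genes. POT1 encodes thiolase and CTA1 the peroxisomal catalase, and their matches are given for comparison with that of PEX11.
POT1, chrIX:41610-41632: CGGggataatagtattaacaCCG
CTA1, chrIV:969866-969889: CGGctttaacaaatataaactCCG
PEX2, which fell over both ages, had no match.

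The counting windows, approximated from the end of the coding sequence, overlapped a neighbour's window for 15 of the 32 genes, always on the opposite strand. Since the use of strand is not stated, the levels of these 15 genes may include reads of the neighbour. The remaining 17, with PEX11 and PEX2 among them, had no such overlap. The largest overlaps were those of PEX34 with PRD1 (382 bp) and PEX29 with SNM1 (362 bp).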

How the data were processed

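Libraries captured transcript 3′ ends by oligo-dT priming, with unique molecular identifiers. The authors mapped reads with bowtie2 (version and use of strand not given in the sources used here) to sacCer3, removed duplicates by identifier and counted the reads of each gene in a window reaching 350 bp before and 200 bp after its termination site. The deposited values are PPM, the count divided by the library total and multiplied by 1000000 (the same scale as RPM). The table mixes tab rows with 553 comma rows, which were split, and 2 genes broken over 2 lines were left out. The comma rows kept the unit from being checked as RPM, so no count test was run. Submitters' processing notes also name bcl2fastq 2.17.

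log2(PPM + 10) was fitted, for genes averaging 20 PPM or more, with 1 mean per group in limma 3.58.1 (R 4.3.3, eBayes with trend, 45.1 prior degrees of freedom), with Benjamini-Hochberg adjustment within each of 7 comparisons. The fit was tested on simulated data. Fold changes on this scale understate those of low genes. Whole reads, recovered from the PPM steps, describe depth only, and counting intervals (exact, 95%) cover counting error only. The labels number replicates but name no batch, and the study describes repeated sorts as biological replicates. Promoter windows and overlaps came from the RefSeq sacCer3 genome. Genes are named with their levels, with per-library values for those past the threshold in any comparison, 2 genes being counted but not reported here. Per-library values were also given for the 3 highest and, chosen after its values were seen, PEX3. From the enzyme list at most 5 genes in each direction were named by size, and those with the oleate pattern were added after their values were seen. The genes, roles and lists were chosen with earlier results of these data known. Alternatives were other pseudocounts (1 and 50 PPM), other filters, median-of-ratios scaling, a minimum 2-fold difference, a replicate block and leaving out each library.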

Additional observations from a re-analysis of the deposited data

How the results depend on the processing

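No difference of a gene reversed while called. The count of 2 genes passing at 48 hr became 1 (PEX2) where at least a 2-fold difference was required, and 1 to 2 on leaving out a library. At 72 hr it became 1 (PEX11) with a pseudocount of 1 PPM, with no filter and with a mean of at least 50 PPM, and 1 to 2 on leaving out a library. Averaged over both ages it became 1 (PEX11) with the 2-fold requirement and 2 to 3 on leaving out a library, the third being PEX32 without reduced 48 hr replicate 2. The age comparison averaged over both redox states gave 0, and 0 to 1 on leaving out a library (PEX3, without reduced 72 hr replicate 3), and the other age comparisons and the difference between ages gave 0 throughout. The adjusted p of PEX11 ranged from 2.3e-07 to 0.00055 at 72 hr and from 1.2e-09 to 1.1e-05 averaged, and that of PEX2 averaged from 0.0002 to 0.0023.

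Replicates of the same number did not deviate together (correlations of -0.06 to 0.04 over 18 pairs), and a fit with the replicate number as a block gave the same counts of 2, 2, 2, 0, 0, 0 and 0. With median-of-ratios scaling the calls over the whole table at 72 hr were 262 higher and 186 lower (232 and 227 as reported), and those averaged over the ages 277 higher and 252 lower (234 and 333 as reported). Most of the 32 genes have under 100 reads per group, which limits the size of difference that could pass.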

Other observations

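Genes that act on the biogenesis genes or with their products were also read from the fit averaged over both ages. Of 8 regulators of peroxisomal genes 2 passed, in opposite directions, where 11.9% of all genes did: MSN2, an activator of stress genes, fell by 0.77 (limma adjusted p = 0.035), and its paralogue MSN4 rose by 0.87 (limma adjusted p = 0.047). The oleate activators OAF1 and PIP2 had differences of 0.04 and -0.15, ADR1, an activator of genes for growth without glucose, had -0.32 and OAF3 had -0.52, and none of them passed.

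Of 5 tested genes that act in peroxisome division, transport, membrane protein sorting or turnover, none passed by limma. MDV1, the adaptor between Fis1 and Dnm1, had a difference of -0.69 (adjusted p = 0.13) and ATG11, a scaffold of selective autophagy, one of -0.73 (adjusted p = 0.094). In a window of 500 bases before the start, chosen after seeing the data, the oleate pattern was in the promoters of the same 5 biogenesis genes, in 14 of the 26 enzyme and carrier genes and in 8.83% of all promoters.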
